A study of Mus musculus with 19 samples.

Results

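The proteasome genes described here are the protein-coding rows of the deposited count table whose symbol starts with Psma, Psmb, Psmc, Psmd or Psme followed by a digit, leaving out Psmb8 and Psmb9. The rule found 43 of the 53379 gene rows. By role they are 7 alpha ring and 7 beta ring genes of the 20S core, 3 alternative core subunits (Psma8, Psmb10, Psmb11), 6 ATPases and 11 non-ATPase subunits of the 19S cap, 3 chaperones of 19S assembly (Psmd5, Psmd9, Psmd10) and 5 activator genes (Psme1, Psme2, Psme2b, Psme3, Psme4). The remaining one, Psmc3ip, is caught by its name only: it encodes a factor of meiotic recombination and is no proteasome subunit.

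The proteasome is the protease that degrades proteins tagged with ubiquitin. Its 20S core is a barrel whose outer rings of alpha subunits gate the entry and whose inner rings of beta subunits hold the active sites of Psmb5, Psmb6 and Psmb7, and the 19S cap binds ubiquitin chains, removes them and unfolds the substrate. Other activators, such as the Psme1 and Psme2 ring or Psme4, can take the place of the cap. In early embryos the proteasome is known for clearing proteins inherited from the egg. Transcription of its genes can be raised together by Nfe2l1, and GABP, an ETS family factor made of Gabpa with a partner such as Gabpb1, binds promoters of many housekeeping genes. Alyref is an adaptor of mRNA export from the nucleus.

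The libraries held polyA RNA of 19 mouse embryos of B6D2F1 background in 7 groups, each lysed alone after culture in KSOM medium and collected 96 hours after insemination. From Alyref+/- parents came 2 KO embryos and 3 non-KO ones at the morula stage, and 3 non-KO blastocysts. From Gabpb1+/- parents came 3 morulae labelled Gabpb1 KO, 2 labelled non-KO, and 3 blastocysts labelled non-KO, and wild-type (WT) parents gave 3 blastocysts. KO embryos were recognised by the submitters from missing reads over the deleted region in the same libraries, so a non-KO embryo is WT or heterozygous, and the WT group has no morulae. Morulae and blastocysts were of the same age in culture and differ in stage, so the morulae had developed less far by that time. Stage and pace of development cannot be told apart in comparing them. Each embryo is a separate sample, and p-values set a difference against the spread between embryos within groups, estimated over all 7 groups.

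Gene counts summed to between 7486125 and 31536282 per embryo. Alyref stood at 47.8 and 58.5 CPM (counts relative to the embryo's scaled gene total) in the 2 Alyref KO morulae and at 162 to 291 CPM in their 3 non-KO counterparts. Gabpb1 stood at 78.3, 259 and 151 CPM in the 3 morulae labelled Gabpb1 KO and at 93.8 and 83.3 CPM in their 2 non-KO counterparts, so counts over the whole gene did not separate these labels, and the deleted part cannot be seen in them. The second morula labelled Gabpb1 KO had the highest ERCC spike-in share (1.95% of counts, against 0.502% in the lowest embryo). The 9 trophectoderm markers, which include Cdx2, Krt8 and Krt18, summed to 608 to 1422 CPM in Alyref KO morulae and to 597 to 1863 CPM in the matching non-KO morulae. The same sum was 344 to 2479 CPM in the morulae labelled Gabpb1 KO, 2554 to 4042 CPM in the Gabpb1 cross non-KO morulae, and 3967 to 6677 CPM over the 9 blastocysts; Elf5 alone among them was at 0 in any embryo (2 of 19). Cumulus and sperm markers summed to at most 0.96 and 2.01 CPM per embryo, and oocyte markers to at most 9.72 CPM. The blood markers, in which Hba-a1 was the gene detected throughout, summed to 127.5 CPM in the second morula labelled Gabpb1 KO and to 56.3 and 19.3 CPM in the Gabpb1 cross non-KO morulae, and to at most 4.97 CPM elsewhere.

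Since Gabpb1 is one of the targeted genes, the promoters of the proteasome genes were searched for the 8-letter GABP motif CCGGAAGT and its reverse complement ACTTCCGG. RefSeq windows of 300 bases (250 before to 50 after an annotated start, GRCm38.p6) were at hand for 36 of the 43 genes, in 39 windows. The motif was found in 8 of these 36 genes (22.2%) and in 9 of their 39 windows (23.1%). All 32851 windows of the RefSeq table held it in 3.89%, and the 12017 windows of genes tested here in 8.39%. The 9 matches are given here with 11 bases on either side, read 5′ to 3′ on the gene's strand with the motif in capitals, because these are the members whose start regions match the motif of the complex that the targeted gene belongs to.
Psmc2, first window, chr5:21785179-21785208, plus strand: gaccagtgagcACTTCCGGgatggggctcg
Psmc2, second window, chr5:21786711-21786740, plus strand: ggcgcggagctACTTCCGGtggggaagaga
Psmd13, chr7:140882377-140882406, plus strand: cgcccgcggtgCCGGAAGTgagcgagcact
Psme4, chr11:30771711-30771740, plus strand: gtggccccgccCCGGAAGTgacttgaggcc
Psme3, chr11:101316203-101316232, plus strand: gctgtgacgcaACTTCCGGcgtgagcggcg
Psmd12, chr11:107479499-107479528, plus strand: atgagcgggcgACTTCCGGtgcgagtgacg
Psma6, chr12:55398830-55398859, plus strand: cagtagccataACTTCCGGgagggggcttg
Psmc1, chr12:100110162-100110191, plus strand: ttggtggatgcACTTCCGGcggtggcgatt
Psmd6, chr14:14120972-14121001, minus strand: cagagacgcgaCCGGAAGTcagactggcgg
In 6 of the 9 the motif reads as its reverse complement on the gene's strand. Counted from the annotated start of its window, the match began between positions -85 and -6 in 7 stretches, at 2 in Psme3 and at 17 in Psma6. The Psma6 match lay in the window chr12:55398575-55398874. The window around the first base of that gene, chr12:55383972-55384271, held no GABP motif.

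The same windows were searched for TGACNNNGC, the letters bound by Nfe2l1 with a small Maf partner, and for CCAAT, bound by NF-Y, on both strands. TGACNNNGC was found in 6 of the 39 member windows (15.4%), those of Psmb5, Psmb6, Psmc6, Psmd9, Psmd12 and Psme4, against 12.4% of all windows and 14.5% of the windows of tested genes. Psmd12 and Psme4 held both this motif and the GABP motif, without overlap. CCAAT was found in 14 of the 39 member windows (35.9%), against 37.4% of all windows and 38.4% of the windows of tested genes. A match describes the letters only, and binding was not measured.

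**Figure D1:**
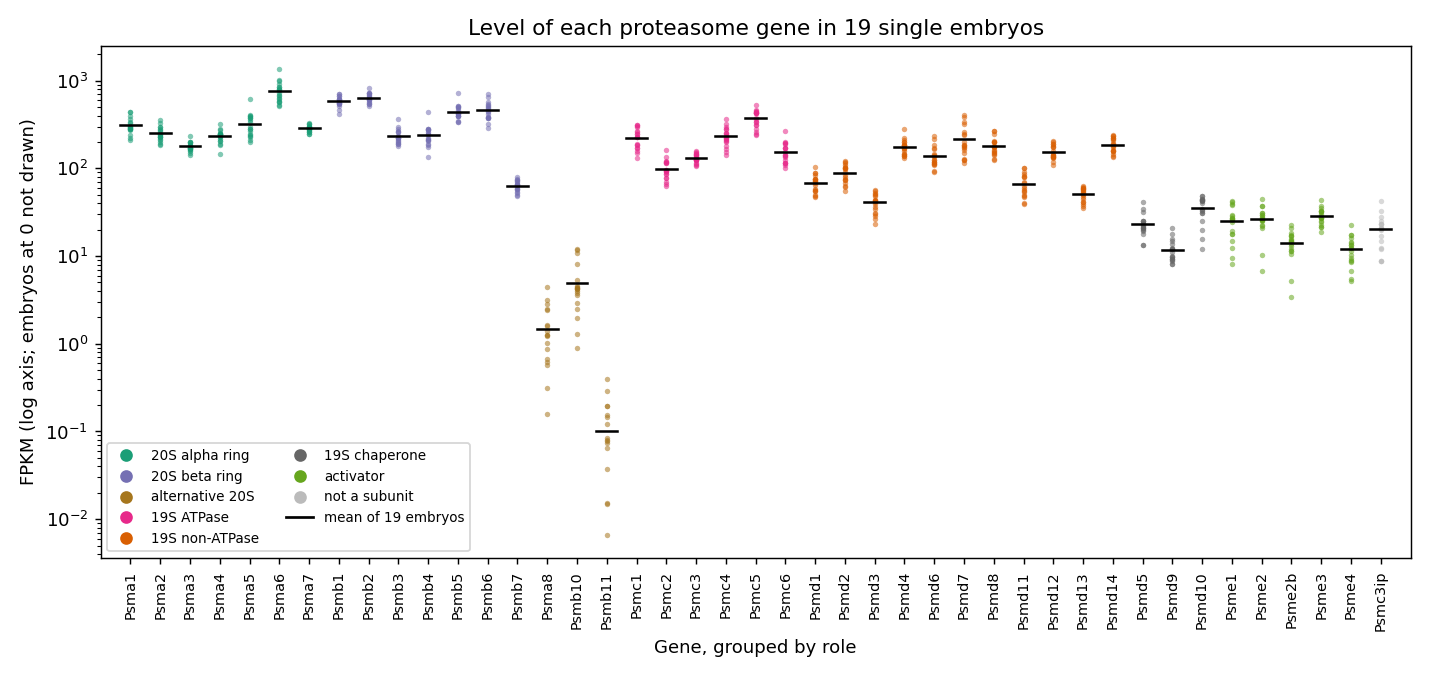
FPKM of each of the 43 genes (log axis) in the 19 embryos, one point per embryo coloured by role, with a bar at the mean; embryos at 0 are not drawn. Core and cap genes lie between 40.9 and 761 FPKM on average, activators and chaperones between 11.8 and 35.6, and the alternative core subunits at or below 4.99.

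On the length-corrected FPKM scale the 7 beta ring genes had a median level of 445, the 7 alpha ring genes 285, the 6 ATPases 190 and the 11 non-ATPase cap subunits 140. In CPM, which is not divided by exon length, the order of the alpha and beta rings was reversed. Per embryo, the 7 alpha ring genes summed to 5343 ± 883 CPM (SD, n = 19 embryos). The 7 beta ring genes summed to 3872 ± 607 CPM. By mean FPKM, Psma6 was the highest gene, at 761 ± 208 FPKM (SD, n = 19 embryos), followed by Psmb2 (637 ± 80.6) and Psmb1 (584 ± 73.3). Psma6 lay above 99.6% of the tested genes. Psmb7, the trypsin-like active subunit, was the lowest core gene at 63.6 ± 9.17 FPKM. Its partners in the active sites, Psmb5 and Psmb6, reached 445 ± 87.4 and 462 ± 108. FPKM divides by merged exon length, which was 3421 bases for Psmb7, 899 for Psmb5 and 1872 for Psmb6. In CPM, without that division, the medians of Psmb7, Psmb5 and Psmb6 were 219.4, 383.5 and 820.1. Psmb7 overlaps Nek6 on the opposite strand over 405 bases, and the strand setting of the counting is not given in the sources used here. Psmd3 was the lowest cap gene at 40.9 ± 9.98 FPKM.

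The 3 alternative core subunits had the lowest mean FPKM of the 43 genes. Psmb8 and Psmb9 were left out by the gene rule, so this does not cover them. Psmb10, the immunoproteasome counterpart of Psmb7, averaged 4.99 ± 3.27 FPKM, and Psma8, the germ cell counterpart of Psma7, 1.47 ± 1.14 FPKM. Psmb10 ranged from 0.89 to 11.94 FPKM between embryos, and its mean lay above 54.55% of the tested genes. Psmb11, the thymus counterpart of Psmb5, averaged 0.102 FPKM with 127 counts over all 19 embryos. It reached 1 FPKM in 0 embryos and was the only member not tested. Its neighbour at the other side of that threshold (1 FPKM in at least 2 embryos) was Psma8, which reached 1 FPKM in 12 embryos. Activators were intermediate: Psme3, the nuclear activator, averaged 28.8 ± 6.13 FPKM, Psme2 26.7 ± 8.63, Psme1 25.1 ± 10.3 and Psme4 12.01 ± 4.44. Psme2b is a near-identical copy of Psme2, so reads may have been divided between them and their values are uncertain. Among the assembly chaperones, Psmd10 averaged 35.6 ± 10.9 FPKM, Psmd5 23.2 ± 6.60 and Psmd9 11.8 ± 3.47.

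The tested members varied between embryos about as much as other genes of high level. Over all 19 embryos the coefficient of variation of CPM had a median of 25.7% over the 42 tested members, 44.0% over all 18410 tested genes and 27.9% over the 2053 genes with a mean of at least 50 FPKM. Among the core ring genes the coefficient reached 32.4% in Psma6 and 32.1% in Psma5. Psma7 was the steadiest member, from 730 to 1038 CPM with a coefficient of 10.5%, followed by the ATPase Psmc3 at 11.6%. Psmd7, a scaffold partner of the deubiquitinase Psmd14, was the most variable core or cap gene at 45.3%, from 258 to 1047 CPM. Psmd14 itself had a coefficient of 21.1%. Together the 43 genes took 1.32% to 2.24% of the gene counts of an embryo.

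**Figure D2:**
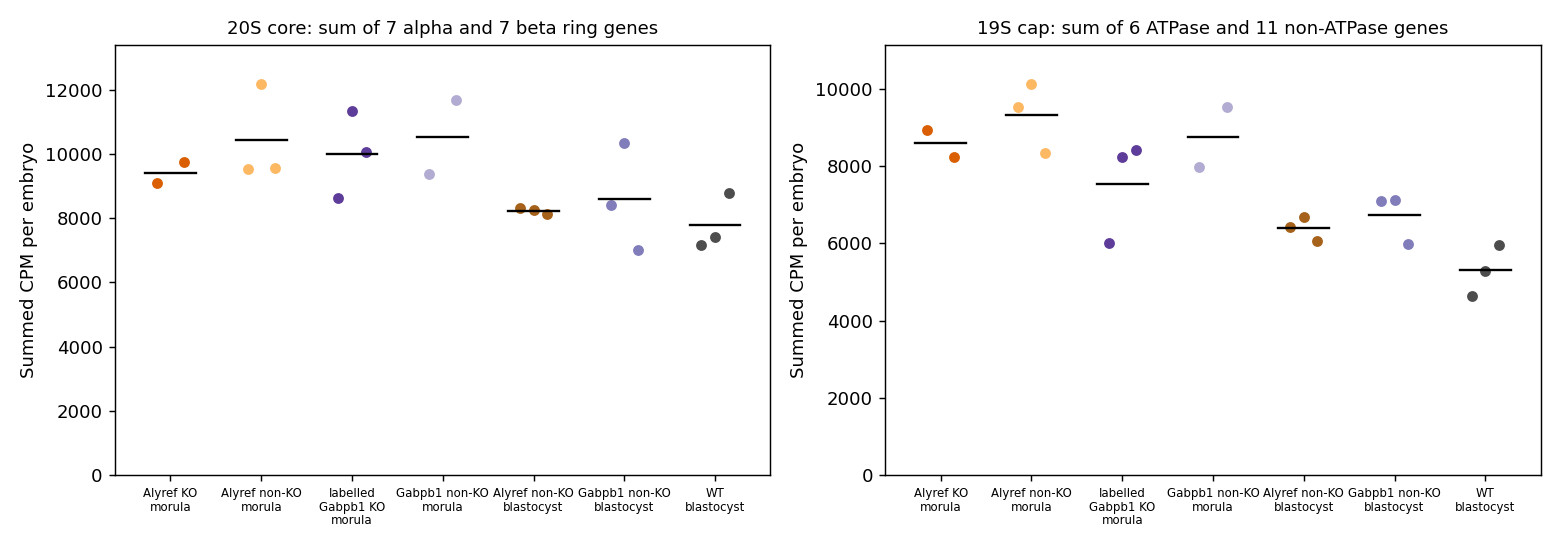
Summed CPM per embryo of the 14 core ring genes (left) and the 17 cap subunit genes (right) in the 7 groups, with one point per embryo and a bar at the group mean. The cap sum is lowest in the WT blastocysts, at 4647 to 5965 CPM, and every morula of either non-KO group is above all 9 blastocysts, whose highest is 7113 CPM.

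The stage comparison asked how the genes differ between blastocysts and morulae of non-KO genotype, separately in each cross. In the Alyref cross 8 of the 31 core and cap genes fell in blastocysts and 21 more were lower without a call, and in the Gabpb1 cross none of the 31 was called. The summed CPM of the 17 cap genes was 9536, 10130 and 8326 in the 3 Alyref cross non-KO morulae and 6416, 6687 and 6068 in the 3 non-KO blastocysts. In the Gabpb1 cross it was 7980 and 9532 in the 2 non-KO morulae and 7097, 7113 and 5995 in the 3 non-KO blastocysts. The groups did not overlap in either cross. The 14 core ring genes summed to 9542, 12190 and 9577 CPM in the Alyref cross morulae and to 8314, 8259 and 8137 CPM in the blastocysts, which were again apart. The core sums of the Gabpb1 cross overlapped, with 9378 and 11680 CPM in morulae and 8429, 10330 and 7000 CPM in blastocysts.

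Gene by gene, 29 of the 31 core and cap genes were lower in blastocysts of the Alyref cross and 31 of 31 in those of the Gabpb1 cross. Of all genes tested, 51.7% and 47.5% were lower. The median log2 fold change over all 42 tested members was -0.34 in the Alyref cross and -0.29 in the Gabpb1 cross, against -0.04 and 0.02 over all genes. In the Alyref cross 8 members fell and 1 rose at an adjusted p under 0.05 (edgeR, Benjamini-Hochberg), where 7.43% of all tested genes were called lower and 5.62% higher. Blastocysts and morulae of that cross did not overlap in 23 members that were lower and 2 that were higher, against 19.2% and 19.6% of all genes. In the Gabpb1 cross 0.0% of all genes were called, and no member. There 9 members, all lower, had an unadjusted p under 0.05, against 1237 of the 18410 tested genes, 815 of them lower. Without overlap 15 members were lower, against 11.7% of all genes. Without the second Gabpb1 cross non-KO morula the median of the members there was -0.185. No alternative tool called a member there. Of the 9 trophectoderm markers, 4 were called higher and 1 lower in the Alyref cross and none was called in the Gabpb1 cross (summed levels are given above), and in the Alyref cross the epiblast markers Nanog (log2 fold change -1.95, adjusted p = 0.00432) and Pou5f1 (-0.80, adjusted p = 0.0421) and the oocyte marker Zp3 (-3.41, adjusted p = 0.0163) fell by the same edgeR test. The part of these cell types in the differences was not tested. In whole embryos, fewer cells of a type and less RNA per cell cannot be told apart.

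Psmd7 showed the strongest difference. It stood at 751, 1047 and 572 CPM in the Alyref cross morulae and at 340, 280 and 381 CPM in the blastocysts. Its log2 fold change was -1.24 (SE 0.21, adjusted p = 0.00773). It fell in each of 6 fits that left out 1 embryo, with adjusted p from 0.00064 to 0.0400. In the Gabpb1 cross it did not separate the stages: 440 and 376 CPM in morulae, 385, 425 and 352 CPM in blastocysts, and a log2 difference of -0.08 (SE 0.23, adjusted p = 0.983). The test of the difference between the 2 crosses gave 1.17 (SE 0.32, adjusted p = 0.204), which misses the threshold.

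Among core subunits, the alpha ring genes Psma5 and Psma6 fell in the Alyref cross. Psma5 went from 544, 611 and 508 CPM in morulae to 329, 305 and 328 CPM in blastocysts, for a log2 fall of -0.79 (SE 0.23, adjusted p = 0.0379). In the other cross its values were 484 and 800 CPM in morulae and 360, 462 and 254 CPM in blastocysts, which did not overlap, with a log2 difference of -0.84 that was not called (adjusted p = 0.528). Psma6 stood at 1302, 1916 and 1015 CPM in the Alyref cross morulae and at 781, 855 and 724 CPM in the blastocysts (log2 fold change -0.84, SE 0.22, adjusted p = 0.0238). No beta ring gene was called: the 7 of them ranged from -0.42 (Psmb7) to 0.02 (Psmb5) in the Alyref cross and from -0.59 (Psmb4) to -0.11 (Psmb2) in the Gabpb1 cross. Of the active subunits, Psmb5 had log2 differences of 0.02 and -0.47 and Psmb6 of -0.29 and -0.43 in the 2 crosses, and none was called.

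In the 19S cap the ATPases Psmc1, Psmc2 and Psmc6, motor subunits that thread the substrate into the core, fell in the Alyref cross. Psmc1 stood at 625, 670 and 504 CPM in morulae and at 365, 369 and 329 CPM in blastocysts (log2 fold change -0.76, SE 0.19, adjusted p = 0.0198). Psmc6 had a log2 fold change of -0.67 (adjusted p = 0.0459) and Psmc2 of -0.61 (adjusted p = 0.0425). All 6 ATPases were lower in both crosses, with medians of -0.55 and -0.44. Besides Psmd7, the non-ATPase subunits Psmd12 and Psmd14 fell, Psmd14 being the deubiquitinase of the cap. Psmd12 went from 572, 580 and 453 CPM to 364, 365 and 347 CPM (log2 fold change -0.58, SE 0.15, adjusted p = 0.0220), and in the Gabpb1 cross from 517 and 493 CPM to 377, 388 and 348 CPM (-0.45, adjusted p = 0.605). Psmd14 fell as well (log2 fold change -0.57, SE 0.18, adjusted p = 0.0459). Psmd13 was the one cap gene that was not lower in the Alyref cross, at 173, 160 and 188 CPM in morulae and 199, 202 and 171 CPM in blastocysts.

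Of the 5 activators, 4 were higher in blastocysts of the Alyref cross (1 called) and 4 were lower in those of the Gabpb1 cross (0 called). Psme4, which encodes the large single-chain activator PA200, rose in blastocysts of the Alyref cross from 45.5, 52.9 and 82.9 CPM to 105, 111 and 136 CPM (log2 fold change 0.96, SE 0.29, adjusted p = 0.0429). In the Gabpb1 cross it stood at 118 and 102 CPM in morulae and at 93.4, 73.7 and 71.6 CPM in blastocysts, a log2 difference of -0.46 (adjusted p = 0.825). The difference between the crosses was -1.42 (SE 0.43, adjusted p = 0.231). Psme1 and Psme2 had log2 differences of 0.52 and 0.77 in the Alyref cross and of -0.18 and -0.68 in the Gabpb1 cross, with no call, and Psme3 had -0.42 and 0.35. Psmd10, the 19S chaperone also known as gankyrin, was at 38.8, 26.2 and 46.5 CPM in Alyref cross morulae and at 64.5, 63.5 and 65.8 CPM in blastocysts, without overlap and without a call (0.80, adjusted p = 0.0674). Psmb10 stood at 19.2, 22.8 and 8.81 CPM in those morulae and at 7.64, 6.89 and 6.74 CPM in the blastocysts (-1.25, adjusted p = 0.0594). Psma8 had log2 differences of 1.20 (adjusted p = 0.238) and -0.89 (adjusted p = 0.870).

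The Alyref cross calls were sensitive to single embryos. Leaving out any one of the first and second non-KO morulae or of the 3 blastocysts left 1 call, Psmd7, while leaving out the third morula gave 16. The number of members that were lower stayed between 33 and 35 of 42 in these 6 fits.

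**Figure D3:**
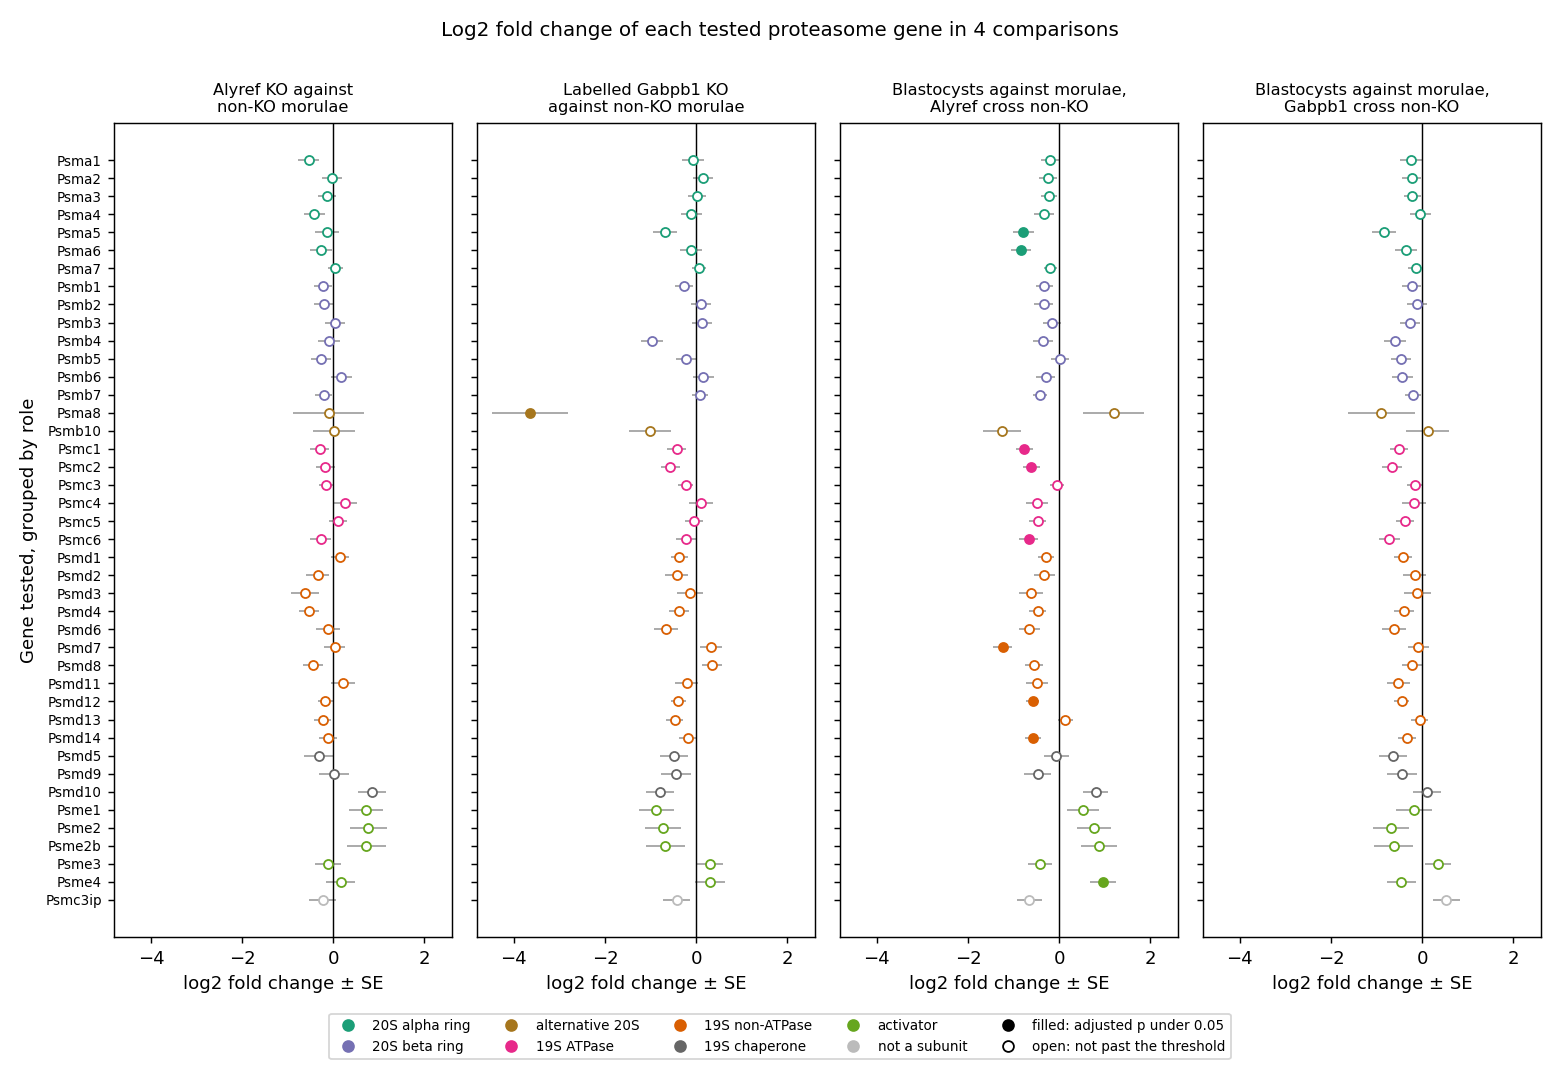
Log2 fold change with its standard error for each of the 42 tested genes, ordered by role, in the 2 KO and the 2 stage comparisons; filled points passed an adjusted p of 0.05. The KO and stage comparisons of a cross share its non-KO morulae. Psma8 is filled in the Gabpb1 panel, 9 genes are filled in the Alyref stage panel, and no gene is filled in the other panels.

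The 3 morulae labelled Gabpb1 KO were compared with the 2 non-KO morulae of their cross. Of the 42 tested members 30 were lower and 12 higher, and the median log2 difference was -0.23, against 0.06 over all genes. One member, Psma8, was called lower, where 1.3% of all tested genes were, and none was called higher, where 0.348% were. No member was higher without overlap between the groups and 15 were lower without overlap, against 15.8% and 16.4% of all genes. Unadjusted p-values under 0.05 were found for 10 members, all of them lower. Of the 18410 tested genes 3476 had one, 1885 of them lower. By role, 5 of 6 ATPases were lower (median -0.23), 9 of 11 non-ATPase cap subunits (-0.37), 3 of 3 chaperones (-0.49), 4 of 7 alpha ring genes (-0.06), 3 of 7 beta ring genes (0.08), 3 of 5 activators (-0.68) and both tested alternative subunits (-2.33). Roles were not tested against each other. Leaving out the second non-KO morula, whose core and cap sums were the highest of that pair, brought the median to -0.08 with 25 members lower, and leaving out the first brought it to -0.41 with 33 lower.

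Psma8 stood at 0.516, 0.278 and 0 CPM in the morulae labelled Gabpb1 KO, from 6, 3 and 0 counts, and at 3.98 and 2.66 CPM in the non-KO morulae, from 56 and 35 counts. The count of 0 allows up to 3 counts in that library. Its log2 fold change was -3.65 (SE 0.83, adjusted p = 0.0437). Both non-KO morulae and 0 of the 3 morulae labelled Gabpb1 KO reached the 1 FPKM of the filter. The call was lost without the second or the third morula labelled Gabpb1 KO (adjusted p = 0.0938 and 0.0720) and without either non-KO morula (0.130 and 0.136). Without the first morula labelled Gabpb1 KO, Psma8 and Psmd10 were called. In the other morulae Psma8 lay between 1.07 and 2.45 CPM.

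Psmb4, a beta ring subunit without an active site, came next. It stood at 256, 377 and 421 CPM in the morulae labelled Gabpb1 KO and at 525 and 840 CPM in the non-KO morulae, with no overlap. Its log2 difference was -0.96 (SE 0.24, adjusted p = 0.0518), just outside the threshold. It was called in 3 of the 14 alternative fits, among which its adjusted p ranged from 0.00888 to 0.456. Among the 19 embryos the first morula labelled Gabpb1 KO had the lowest Psmb4 and the second non-KO morula the highest. Psma5 was at 376, 335 and 482 CPM against 484 and 800 CPM (-0.69, adjusted p = 0.169). The ATPase Psmc2, whose windows carry 2 of the GABP matches, was at 378, 509 and 485 CPM against 560 and 801 CPM (-0.57, adjusted p = 0.159). Both genes were lower without overlap between the groups, as were 16.4% of all tested genes.

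No activator or chaperone was called in the same comparison, and neither was the alternative core subunit Psmb10. Psmd10 was at 43.3, 18.7 and 29.4 CPM in the morulae labelled Gabpb1 KO and at 44.5 and 60.8 CPM in the non-KO morulae (log2 difference -0.79, adjusted p = 0.188). Psme1 was at 17.3, 22.2 and 40.6 CPM against 41.8 and 55.9 CPM (-0.87, adjusted p = 0.238), and Psme2 at 46.6, 40.7 and 40.6 CPM against 63.2 and 77.9 CPM (-0.73, adjusted p = 0.348). Psmb10 was at 1.46, 4.44 and 2.27 CPM against 4.84 and 6.09 CPM (-1.01, adjusted p = 0.265). These 4 genes were lower without overlap between the groups, as were 16.4% of all tested genes. The largest positive differences were those of Psmd8 (0.34), Psmd7 (0.33) and Psme3 (0.31), each with overlapping embryos. Psmb5, Psmb6 and Psmb7 had log2 differences of -0.23, 0.16 and 0.08, and Psme4 of 0.30, with no call.

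The 8 genes with a GABP motif in a window had a median log2 difference of -0.41 in this comparison, from -0.66 (Psmd6) to 0.31 (Psme3), and 6 of them were lower. The 27 tested genes with a window and no such motif had a median of -0.23, and 20 were lower, Psmb4 and Psma5 among them. The ranges of the 2 sets overlapped. The same split gave medians of -0.22 with and -0.38 without TGACNNNGC, and of -0.12 with and -0.41 without CCAAT. The sum of the trophectoderm markers was lower in the morulae labelled Gabpb1 KO as well (344 to 2479 against 2554 to 4042 CPM). Of the 9 markers 8 were lower and 1 higher, and Fgfbp1 was called lower. Of 6 epiblast markers 5 were higher (median 0.71), and of 6 primitive endoderm markers 4 were lower (median -1.73), with no call. The part of these markers in the differences of the proteasome genes was not tested.

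In the Alyref cross, 2 KO morulae were compared with 3 non-KO morulae. No proteasome gene was called (edgeR, 0.228% of all tested genes were). An unadjusted p under 0.05 was found for 1 higher and 2 lower members, against 921 and 1304 of the 18410 tested genes. DESeq2 called no member, with 502 calls over all genes. With limma-voom and embryo weights 2 members were called, Psmd10 and Psme2, both higher, among 841 calls over all genes. In all, 27 of the 42 members were lower, and their median log2 difference was -0.13 against -0.04 over all genes. Without the second non-KO morula it was -0.0034, with 21 members lower and 21 higher, and without the third it was -0.204. Embryos did not overlap in 8 lower and 3 higher members, against 12.3% and 12.5% of all genes. The smallest adjusted p was that of Psmd10, at 63.9 and 71.4 CPM in the KO morulae and 38.8, 26.2 and 46.5 CPM in the non-KO morulae (log2 difference 0.86, SE 0.31, adjusted p = 0.251). Psme1 was at 64.8 and 93.1 CPM against 60.5, 31.6 and 52.2 CPM (0.72, adjusted p = 0.486), and Psme2 at 50.6 and 46.4 CPM against 18.7, 13.6 and 53.0 CPM (0.77, adjusted p = 0.478). Without the third non-KO morula, 2 members, Psme2 and Psme2b, were called higher.

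The lowest differences in the Alyref KO morulae were found in the cap and the alpha ring. Psmd3 stood at 245 and 118 CPM against 288, 300 and 246 CPM (-0.62, adjusted p = 0.433). Psma1 was at 647 and 627 CPM against 916, 1040 and 824 CPM (-0.54, adjusted p = 0.373). Psmd4, a ubiquitin receptor of the cap, was at 476 and 395 CPM against 578, 718 and 581 CPM (-0.52, adjusted p = 0.344). KO and non-KO morulae did not overlap for these 3 genes, though in Psmd3 the nearest embryos stood at 245 and 246 CPM. Over all tested genes 12.3% were lower without overlap. Psmb5, Psmb6 and Psmb7 had log2 differences of -0.27, 0.18 and -0.21, Psma8 of -0.10, Psmb10 of 0.02, Psme3 of -0.11 and Psme4 of 0.17, with no call.

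The test of the difference between the 2 KO effects called no member (edgeR, 0.907% of all tested genes were called). An unadjusted p under 0.05 was found for 7 members and for 3101 of the 18410 tested genes. Psmd10 came nearest, with a difference of -1.65 (SE 0.43, adjusted p = 0.0841). DESeq2 called Psmd10 and Psma8 there, among 894 calls over all genes. With limma-voom, Psmd10, Psme2 and Psme2b were called, among 773 over all genes. The remaining activators had differences of -1.58 (Psme1, adjusted p = 0.165), -1.49 (Psme2, adjusted p = 0.207), 0.42 (Psme3) and 0.13 (Psme4). The core and cap genes had a median difference of -0.02, with 16 of 31 lower. Psmd8 (0.78), Psmd3 (0.49) and Psma1 (0.48) had the largest positive values, and none was called. Without the third Alyref cross non-KO morula 3 members were called (Psmd10, Psme2 and Psme2b), and without the first morula labelled Gabpb1 KO 1 was (Psmd10).

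**Figure D4:**
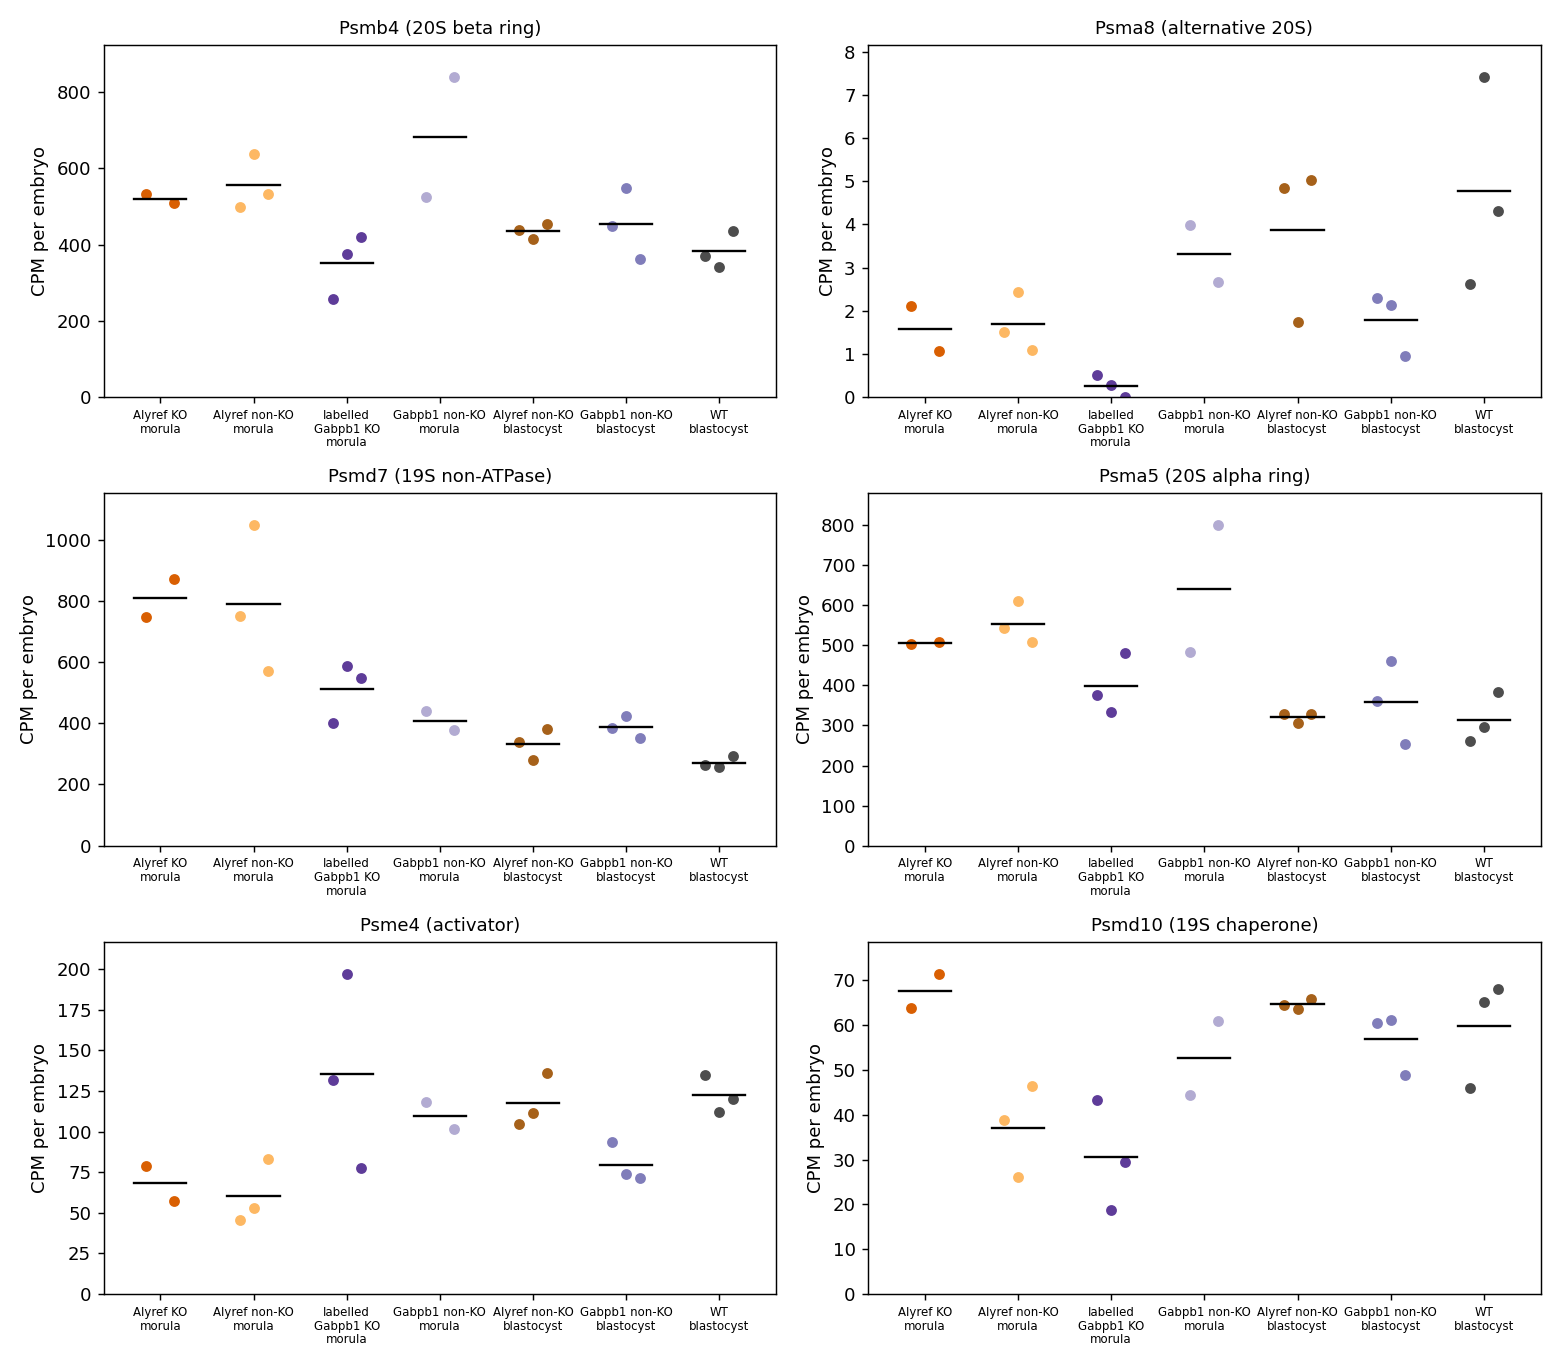
CPM per embryo of Psmb4, Psma8, Psmd7, Psma5, Psme4 and Psmd10 in the 7 groups, with one point per embryo and a bar at the group mean; each panel has its own axis from 0. Psmd7 lies at 572 to 1047 CPM in the non-KO morulae of the Alyref cross and at 258 to 294 CPM in the WT blastocysts, and Psma8 is at 0.516 CPM or less in the morulae labelled Gabpb1 KO.

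Non-KO morulae of the 2 crosses were compared because they serve as the controls above. Of the members 24 were higher and 18 lower in the Gabpb1 cross, with a median log2 difference of 0.03 that ran from -0.1503 to 0.240 when 1 embryo was left out. Psmc3ip, the recombination factor, was lower in the Gabpb1 cross, at 21.8 and 21.8 CPM against 52.7, 88.9 and 36.7 CPM (log2 fold change -1.45, SE 0.31, adjusted p = 0.0361), where 0.674% of all genes were called lower and 1.18% higher. It overlaps Mlx on the opposite strand over 385 bases. Among markers, Fgfbp1 and Krt7 of the trophectoderm were called higher and Nanog lower in the Gabpb1 cross, with all 6 epiblast markers lower (median -0.97), and their part in the differences was not tested. Psmd7 was at 440 and 376 CPM against 751, 1047 and 572 CPM (-0.95, adjusted p = 0.0530). Psmb10 was at 4.84 and 6.09 CPM against 19.2, 22.8 and 8.81 CPM (-1.63, adjusted p = 0.0845), and Psme2 at 63.2 and 77.9 CPM against 18.7, 13.6 and 53.0 CPM (1.31, adjusted p = 0.0882). These 4 genes did not overlap between the crosses. In all, 9 members were higher and 9 lower without overlap, close to the 17.9% and 18.2% of all genes. Psme4 had a difference of 0.86 (adjusted p = 0.139) and Psme3 of -0.56. Leaving out any one morula except the third of the Alyref cross ended the call of Psmc3ip, and leaving out that one gave 6 called members.

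The test of the difference between the 2 stage effects called no member (edgeR, 0.00543% of all tested genes were). At an unadjusted p under 0.05 stood 3 higher and 3 lower members, against 1340 and 1194 of the 18410 tested genes. DESeq2 called Psmd7, among 336 calls over all genes, and limma-voom called Psmd7, Psme4, Psme2 and Psme2b, among 1136. The core and cap genes had a median difference of 0.05. The largest differences besides Psmd7 and Psme4 were those of Psme2 (-1.46, adjusted p = 0.283), Psme2b (-1.50, adjusted p = 0.295), Psmc3ip (1.18, adjusted p = 0.252) and Psme3 (0.77, adjusted p = 0.395). Without the third Alyref cross non-KO morula 5 members were called.

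Blastocysts of the 2 crosses were each compared with the same 3 WT blastocysts, so the 2 comparisons are not independent. No member was called in either, where 0.0% of all genes were called by edgeR in both. An unadjusted p under 0.05 was found for 2 and 7 members, against 541 and 1123 of the 18410 tested genes. Neither DESeq2 nor limma called any member. The 19S genes stood higher in the crosses: all 17 cap genes were higher than in WT in the Alyref cross and all 17 in the Gabpb1 cross. Their summed CPM was 4647, 5281 and 5965 in the WT blastocysts, below each of the 6 others. The nearest of these, the third Gabpb1 cross blastocyst, stood at 5995 CPM, close to the highest WT blastocyst. Over all 42 members 31 and 32 were higher, with medians of 0.17 and 0.20 against -0.01 and 0.00 over all genes. The Alyref cross median was 0.0781 without the first WT blastocyst (26 higher) and 0.274 without the third. The Gabpb1 cross median was 0.0789 without the second blastocyst of that cross (28 higher) and 0.310 without the third WT blastocyst. In the Alyref cross 11 members were higher than WT without overlap, against 6.0% of all genes, and in the Gabpb1 cross 6 members, against 6.51%.

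Psmd1, the largest scaffold subunit of the cap, was at 521, 501 and 505 CPM in the Gabpb1 cross blastocysts and at 324, 356 and 361 CPM in the WT blastocysts (log2 difference 0.55, SE 0.17, adjusted p = 0.696). Psmd2, the other large scaffold, had a difference of 0.63 (adjusted p = 0.788) and Psmd7 of 0.51 (adjusted p = 0.8005) in that comparison. In the Alyref cross the largest positive differences were those of Psmd11 (0.43), Psmc5 (0.39) and Psmd13 (0.37). Each was without overlap, as were 6.0% of all tested genes in that direction. Of the 5 activators 4 were lower than in WT in each cross. In the Gabpb1 cross Psme1 stood at 57.0, 40.4 and 31.6 CPM against 56.2, 83.7 and 96.3 CPM in WT (-0.87, adjusted p = 0.8005) and Psme4 at 93.4, 73.7 and 71.6 against 135, 112 and 120 CPM (-0.62, adjusted p = 0.814).

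Genes that assemble, regulate or feed the proteasome were read from 3 lists. Of 12 assembly and associated factors, all tested, none was called in either KO comparison and 1 in the Alyref cross stage comparison: Adrm1, a ubiquitin receptor of the cap, fell from 451 ± 63.4 to 218 ± 11.7 CPM (SD, n = 3 each; log2 fold change -1.05, SE 0.18, adjusted p = 0.00773). Its Gabpb1 cross difference was -0.40 (adjusted p = 0.763). Pomp, the maturation factor of the core, had differences of -0.42 and -0.49 between stages and of -0.55 in the morulae labelled Gabpb1 KO, with no call. Of 11 genes around Nfe2l1, 10 were tested. Nfe2l1 itself had log2 differences between -0.11 and 0.36 in the KO and stage comparisons, with no call. Syvn1, the ubiquitin ligase that holds Nfe2l1 down, was lower in the morulae labelled Gabpb1 KO, at 7.29 ± 2.15 against 22.0 ± 12.1 CPM (log2 fold change -1.59, SE 0.36, adjusted p = 0.0408). Maff fell between stages in the Alyref cross (-1.49, adjusted p = 0.0248), and Ngly1 was higher in non-KO morulae of the Gabpb1 cross (1.69, adjusted p = 0.0307). Of 18 ubiquitin and shuttle genes, none was called in a KO comparison and 3 fell between stages in the Alyref cross, namely Ufd1 (-0.81), Zfand5 (-1.32) and Zfand2a (-1.79).

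Scaling on the ERCC spike-ins instead of on the genes moved the level of all genes and, with it, of the members. The median log2 fold change over all tested genes became -0.40 in the comparison of morulae labelled Gabpb1 KO, -0.34 and -0.86 in the stage comparisons of the Alyref and the Gabpb1 cross, and 0.39 between the non-KO morulae. On this scale 42 of 42 members were lower in the Gabpb1 KO comparison, with a median of -0.78. In the stage comparisons 36 of 42 (median -0.62, Alyref cross) and 42 of 42 (median -1.16, Gabpb1 cross) were lower. Each of these medians lay below that of all genes. No member was called under this scaling. Over all genes it gave 0 higher and 26 lower calls in the Gabpb1 KO comparison, where the gene-based scaling gave 64 and 239, and 31 higher and 321 lower in the Alyref cross stage comparison, where it gave 1035 and 1367.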

How the data were processed

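PolyA RNA of 19 single embryos was measured. The deposited table holds raw read counts per gene, whole numbers that the authors did not normalise, although its name announces FPKM. Per the submitters' processing notes, STAR, Trim Galore, Trimmomatic, cutadapt, featureCounts and the mm10 build were used; versions and the strand setting are not given in the sources used here. ERCC spike-in rows (92) stayed out of library sizes. CPM (counts relative to the gene total, scaled by TMM) was computed here from the deposited counts. So was FPKM (counts relative to the gene total, divided by merged exon length, without TMM).

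Genes with at least 1 FPKM in at least 2 embryos (18410) entered edgeR 4.0.16 (R 4.3.3), a quasi-likelihood F test with 7 group means over all 19 embryos and 9 contrasts. Benjamini-Hochberg adjustment ran over all tested genes, and a gene was called at an adjusted p under 0.05. The standard error is the absolute log2 fold change divided by the root of F. DESeq2 1.42.0, limma 3.58.1, other scalings and filters, and leaving out each embryo were alternatives. The fit was tested on simulated data. Gene counts were 7486125 to 31536282 per embryo, which sets the counting precision.

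Named per contrast were all called members (at most 10 per direction), the 3 largest rises and falls among members with a mean of at least 5 FPKM, the active, alternative and activator subunits in the KO and stage contrasts, and up to 5 called genes per other list. Other members shown were chosen after their values were seen. The members and lists were chosen with earlier results of these data known. Promoter windows came from RefSeq (GRCm38.p6).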

Additional observations from a re-analysis of the deposited data

How the results depend on the processing

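Limits: groups held 2 or 3 embryos, 1 library each, and genes near the filter such as Psma8 rest on few counts. The number of called members moved with the method. In the Alyref KO comparison limma-voom called 2 (0 to 2 when leaving out 1 embryo). In the Gabpb1 KO comparison DESeq2 and limma on log2(FPKM + 1) called 2, and ERCC scaling and the compared groups alone 0 (0 to 2 when leaving out 1 embryo). For the difference of KO effects DESeq2 called 2 and limma-voom 3 (0 to 3). In the Alyref cross stage comparison ERCC scaling and the compared groups alone called 0, no filter 2, filterByExpr 5 and limma-voom 24 (1 to 16). Of all 18410 tested genes limma-voom called 7262 there. For the difference of stage effects DESeq2 called 1 and limma-voom 4 (0 to 5). Between non-KO morulae ERCC scaling and the compared groups alone called 0, limma on log2(FPKM + 1) 4, DESeq2 5 and limma-voom 6 (0 to 6). Over all genes, 303 calls in the Gabpb1 KO comparison and 2402 in the Alyref cross stage comparison also moved by more than 1.5 times under some alternatives. DESeq2 called 1284 genes in the Gabpb1 KO comparison. Between non-KO morulae the main fit called 342 genes, DESeq2 1709 and limma-voom 2712.

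The median log2 difference over members under ERCC scaling was -0.779 (Gabpb1 KO), -0.597 (difference of KO effects), -0.623 and -1.16 (stage, Alyref and Gabpb1 cross), -0.571 (difference of stage effects, which reversed), 0.516 (non-KO morulae) and 0.363 (Alyref cross against WT blastocysts). Leaving out 1 embryo gave -0.409 to -0.0843 for Gabpb1 KO, -0.199 to 0.208 for the difference of stage effects and -0.1503 to 0.240 for the non-KO morulae. ERCC scaling moves every gene by construction; the cause of the other changes was not tested. With the replicate number as a block, 0 members were called in the Gabpb1 KO comparison and 6 in the Alyref cross stage comparison. Of 52 same-number pairs of embryos 10 correlated above 0.1, with a median of 0.0011. Of 102 other-number pairs 19 did, with a median of 0.0009. Same-number embryos were thus not seen to be more alike, which cannot show what the numbers stand for.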
